A study of Mus musculus with 6 samples.

Results

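PML nuclear bodies are protein assemblies in the cell nucleus that are built around PML, the product of Pml. The transcripts of 5 genes that encode constituents of these bodies or relatives of such constituents were compared between wild-type (WT) and Yme1l-/- mouse embryonic fibroblasts (MEFs). They were Pml, Daxx and 3 genes of the Speckled protein family, Sp100, Sp110 and Sp140, called the Speckled protein genes below. The genes were chosen by name. Each had a row of its own in the count table, so 5 of its 51499 loci were members, but Sp100 and Sp140 share a single interval in the deposited coordinates. All cells were MEFs immortalized with SV40 and came from animals with floxed Yme1l alleles. WT cells carried the genotype Yme1l fl/fl and Yme1l-/- cells had lost the gene for YME1L, a protease of the mitochondrial inner membrane, by Cre recombinase. The cells were expanded as individual clones, so that a property of a clone and the effect of the genotype cannot be told apart, and p-values measure the spread between cultures. Poly(A) RNA of 3 cultures per genotype was sequenced, with 33180867 to 34012520 counted fragments in the WT libraries and 34624075 to 49351107 in the Yme1l-/- libraries.

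PML is modified with the small protein SUMO and gathers partner proteins that bind SUMO. DAXX is such a partner and acts as a chaperone that deposits the histone variant H3.3 together with ATRX. SP100 is, beside PML, a permanent resident of the bodies. SP110 and SP140 share with SP100 an N-terminal oligomerization domain and the DNA-binding SAND domain, and are best known from leukocytes. Pml and the Speckled protein genes are known as interferon-stimulated genes (ISGs), and the bodies restrict DNA viruses by silencing their genomes.

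Levels below are fragment counts per 1000000 fragments of the library (CPM), with library sizes scaled by the TMM method. Fold changes are log2 ratios of Yme1l-/- over WT with their standard error (SE), and a call is an adjusted p under 0.05 in edgeR's quasi-likelihood test over all 13867 loci tested. The targeted gene, listed as Yme1l1, was lower in Yme1l-/-, at 39.1 ± 1.34 CPM against 188.7 ± 5.16 CPM in WT (SD, n = 3). Of all loci tested, 67.7% were called, made up of 33.6% higher and 34.1% lower in Yme1l-/-, so a call by itself set few loci apart. Fibroblast markers summed to 10840 to 11400 CPM in WT and 6646 to 7133 CPM in Yme1l-/-, a sum made up mostly of Fn1, Vim, Col1a1 and Col1a2. Of the 10 markers, Col1a1 was called higher and 6 lower, Pdgfra was not called, and Thy1 and Lum were near 0 in both genotypes.

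The sequences at the starts of the genes are shown first. Marked in them is the longest run of letters that the starts of Sp100 and Sp110 shared, with at most 1 unlike base. The 3 Speckled protein genes lie side by side on chromosome 1 (GRCm38, GENCODE M21) within 133100 bases. Sp110 (85576899 to 85598817, minus strand) and Sp140 (85600378 to 85645037, plus strand) point away from each other with 1560 bases between them. Sp100 (85649988 to 85709998, plus strand) begins 4950 bases after the end of Sp140. Pml lies on chromosome 9 (58218076 to 58249786, minus strand) and Daxx on chromosome 17 (33909414 to 33915590, plus strand). Printed from the RefSeq promoter windows (GRCm38.p6) are the 60 bases before the start of Sp100 (chr1:85649928-85649987), of Pml (chr9:58249787-58249846, read on the minus strand) and of Daxx (chr17:33909354-33909413, before its first annotated start), with the run in capitals.
Sp100: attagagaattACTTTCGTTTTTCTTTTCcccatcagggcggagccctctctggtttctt
Pml: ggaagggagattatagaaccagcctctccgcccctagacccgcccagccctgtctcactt
Daxx: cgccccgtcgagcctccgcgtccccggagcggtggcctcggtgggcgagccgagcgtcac

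For Sp110 the same run was found just inside the first exon, and 30 bases around it (chr1:85598780-85598809, minus strand) are set beside the matching 30 bases of Sp100 (chr1:85649933-85649962).
Sp100: agaattACTTTCGTTTTTCTTTTCcccatc
Sp110: gagatcACTTTCATTTTTCTTTTCttgaag

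The run, ACTTTCNTTTTTCTTTTC, began 49 bases before the start site of Sp100 and 7 bases after that of Sp110. Of the 30 aligned bases, 20 were the same, and all but 1 of the 18 bases of the run. Among 32851 promoter windows (250 bases before to 50 after a start) of 27025 genes, searched on both strands, only the windows of Sp100, Sp110 and Gm7609 held it. Within the run lie, on the reverse strand, the letters GAAA, 3 free bases and GAAA again, a spacing present in 2.75% of all windows. The usual core of the interferon-stimulated response element, with 2 free bases between GAAA and GAAA (3.44% of windows), was in none of the 9 windows of the 5 genes. The window of Sp140 begins after the GENCODE start of that gene, so the bases before that start were not searched. The run was taken as the longest shared by Sp100 and Sp110, so its presence in both was fixed by that choice. Its absence from Pml and Daxx and its rarity are therefore no separate finding. Gm7609 also shares transcript sequence with Sp100, and whether common descent accounts for the run was not tested. The run and its spaced core were chosen after the sequences had been seen. A match describes letters in these windows and says nothing of binding.

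The Speckled protein genes were near zero in WT cells and were expressed in all Yme1l-/- cultures. In CPM, Sp100 rose most, from 0.102 ± 0.0883 CPM in WT to 10.55 ± 2.14 CPM in Yme1l-/- (SD, n = 3). By fold change its order with Sp110 depended on the libraries used. Without WT replicate 2, the log2 fold change was 7.97 for Sp110 and 7.06 for Sp100. Sp140 and Sp110 rose as well but stayed below 2 CPM. Pml and Daxx, which were abundant in WT, differed by less than the test could call.

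In WT, 0, 5 and 5 fragments of Sp100 were counted, against 287, 558 and 631 in Yme1l-/-. The lowest Yme1l-/- library, at 8.20 CPM, lay far above the highest WT library, at 0.153 CPM. A count of 0 in the first WT library allows up to 0.0906 CPM (3 fragments). This is a log2 fold change of 6.66 ± 0.39 (SE; edgeR adjusted p 4.0e-07), which ranked 20 from the top among all loci tested. Sp100 passed the filter on low counts through its Yme1l-/- libraries alone, so it had to differ. Neither the adjusted p nor the rank is separate evidence, and the same holds for the calls of Sp110 and Sp140 below. Over the summed fragments, 10 in WT and 1476 in Yme1l-/-, the ratio was 106.6, with a 95% exact interval of 57.8 to 222.8 that covers counting error only.

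Sp110 had 0, 2 and 0 fragments in WT and 26, 30 and 50 in Yme1l-/-. The genotypes did not overlap: no WT library exceeded 0.0611 CPM and no Yme1l-/- library fell below 0.595 CPM. Sp110 was called at a fitted log2 fold change of 5.05 ± 0.65 (SE; edgeR adjusted p 3.6e-05), but with 2 fragments in all of WT its size depends on the count that the fit adds before taking logs. The ratio of the summed fragments was 38.3, with a 95% exact interval of 10.3 to 320.2 that covers counting error only. Both Sp110 fragments of WT came from a single library, WT replicate 2. Without it the fitted value was 7.97, and the mean of the Yme1l-/- libraries was at least 8.41-fold higher than 3 fragments in a WT library would be.

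Sp140 was detected in every library, with 4, 8 and 14 fragments in WT and 32, 96 and 89 in Yme1l-/-. These values correspond to 0.265 ± 0.155 CPM and 1.52 ± 0.532 CPM (SD, n = 3). The highest WT library, at 0.429 CPM, was below the lowest Yme1l-/- library, at 0.914 CPM. The resulting log2 fold change, 2.53 ± 0.41 (SE), was called (edgeR adjusted p 0.000201). The scatter was wide in both genotypes, with an SD of 58.5% of the mean in WT and 34.9% in Yme1l-/-.

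**Figure D1:**
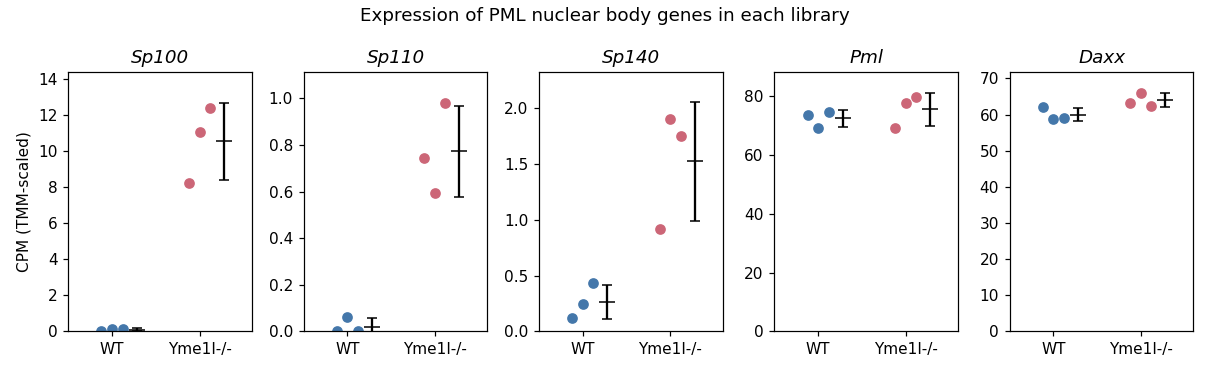
CPM of Sp100, Sp110, Sp140, Pml and Daxx (vertical axes from 0, a scale of its own for each gene) in the 3 WT libraries (blue) and the 3 Yme1l-/- libraries (red). Points are libraries and the black marks give mean and SD, cut off at 0 for Sp110 in WT. The 3 Speckled protein genes sit at or near 0 in WT and above every WT library in Yme1l-/-, whereas Pml overlaps between the genotypes and Daxx is nearly level.

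Pml, which encodes the scaffold of the bodies, had 2433, 2264 and 2441 fragments in WT and 2421, 3918 and 4060 in the partly deeper Yme1l-/- libraries. Scaled to library size these were 73.5, 69.2 and 74.8 CPM in WT and 69.2, 77.7 and 79.7 CPM in Yme1l-/-. The genotypes overlapped, since the first Yme1l-/- library was as low as the lowest WT library. Pml was not called at a log2 fold change of 0.06 ± 0.06 (SE; edgeR adjusted p 0.392), and the 95% interval allowed anything between 0.952 and 1.14 times the WT level. Loci of chromosome 9, where Pml lies, had a median log2 fold change of -0.36. With the medians of chromosomes removed Pml was at 0.42 and was called higher, with an edgeR adjusted p of 9.8e-05. Its position relative to WT therefore depends on whether it is read against all loci or against those of its chromosome.

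Daxx, the gene of the histone chaperone, had 62.1, 58.8 and 59.2 CPM in WT and 63.3, 66.1 and 62.4 CPM in Yme1l-/-. The Yme1l-/- libraries were all above the WT libraries by a narrow margin, a pattern found higher in Yme1l-/- for 35.9% of the loci tested. The log2 fold change was 0.09 ± 0.05 (SE) and was not called (edgeR adjusted p 0.106), with a 95% interval of 0.992 to 1.14 times the WT level. Upper-quartile scaling put it at 0.15, past the threshold, and its sign turned with chromosome medians removed, at -0.08, where it was not called.

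**Figure D2:**
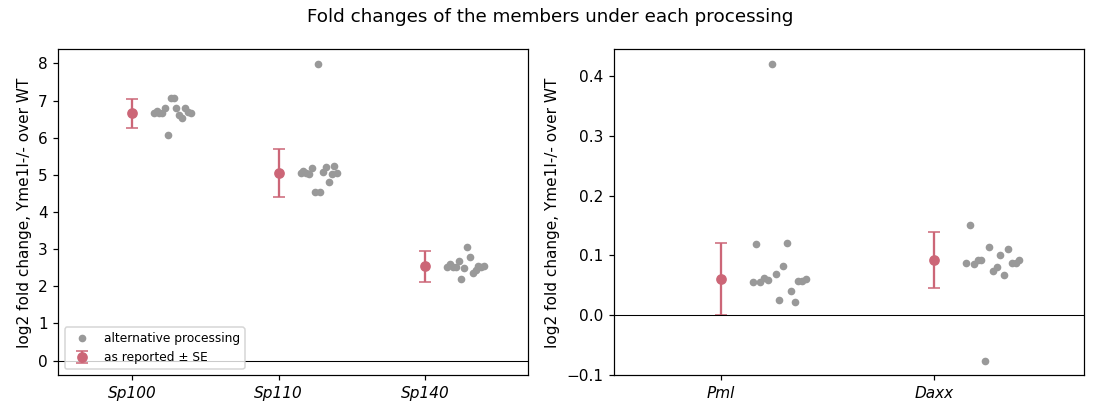
Log2 fold change of Yme1l-/- over WT for the Speckled protein genes (left) and for Pml and Daxx (right, on a narrower axis). Red points are the values as reported with their SE and grey points are the alternative scalings, filters, tests and left-out cultures. Sp100, Sp110 and Sp140 stay above 2 under every alternative that could be run, and the Pml point at 0.42 and the Daxx point below 0 are those with chromosome medians removed.

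The 3 calls among the 5 genes, all higher, stand beside 67.7% of all loci called and 33.6% called higher, and are not a measure of how often such genes change. Sp100, Sp110 and Sp140 passed the filter on low counts through their Yme1l-/- libraries alone, and a gene that passes in this way has to differ. With at least 10 fragments required in every library only Pml and Daxx were left, and neither was called. When loci with as little as 1 count in all were kept, the Speckled protein genes were called again. No other alternative ended a call of theirs, with edgeR or DESeq2 adjusted p-values of at most 8.0e-06 for Sp100, 0.00023 for Sp110 and 0.00196 for Sp140.

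The ratio of genes within a library does not depend on how libraries are scaled. For every 1000 fragments of Pml there were 0, 2.21 and 2.05 of Sp100 in WT, and 118.5, 142.4 and 155.4 in Yme1l-/-. For Sp140 this ratio was 1.64 to 5.74 in WT and 13.2 to 24.5 in Yme1l-/-, again without overlap. The Daxx ratio was 791.5 to 849.8 in WT and 783.5 to 914.9 in Yme1l-/-, so that the balance between Daxx and Pml transcripts overlapped between genotypes. Pml and Daxx together held 99.57% to 99.91% of the fragments of the 5 genes in each WT library and 90.4% to 93.1% in Yme1l-/-. Of the fragments of Sp100, Sp110 and Sp140 together, 81.6% to 83.2% in each Yme1l-/- library belonged to Sp100.

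Levels of different genes were compared per length. In the FPKM values that the authors combined for each genotype (fragments scaled to transcript length and library size), the order in WT was Daxx at 26.2, Pml at 20.1, Sp140 at 0.163, Sp100 at 0.125 and Sp110 at 0.0114. In Yme1l-/- Daxx (28.8) and Pml (21.4) led again, followed by Sp100 at 6.18, Sp140 at 0.847 and Sp110 at 0.480 FPKM. The Sp100 values differ 49.4-fold, less than the 106.6-fold ratio of its counts and below the interval of that ratio, and the cause was not tested. By FPKM, Sp100 stood below Sp140 in WT and above it in Yme1l-/-. These values carry no replicate error. As a check with replicates, CPM were divided by the length of all annotated exons, which gave 19.05 ± 0.579 CPM per kilobase for Daxx and 13.0 ± 0.528 for Pml in WT (SD, n = 3). On that scale Sp140 (0.0795 ± 0.0466) lay above Sp100 (0.0135 ± 0.0117) in WT without overlap of the libraries, and Sp100 and Sp110 (0.00300 ± 0.00520) did overlap. In Yme1l-/- the order on that scale was the same as by FPKM, with no overlap between neighbours. The separation of the low genes rests on the length chosen: divided by the longest coding transcript, a choice made after seeing the data, Sp140 (0.050 to 0.177) and Sp100 (0 to 0.0566 CPM per kilobase) overlapped in WT, as did Sp140 (0.378 to 0.788) and Sp110 (0.310 to 0.511) in Yme1l-/-.

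Near-identical copies of the Speckled protein genes can exchange fragments with them. Of the 100-base windows of the longest coding transcript, 5.17% were found letter for letter in transcripts of other genes for Sp100, 21.1% for Sp110 and 28.6% for Sp140, but none for Pml or Daxx. These windows were shared with 15 genes, mostly predicted ones, of which 14 were in the count table and none passed the filter. Their fragments summed to 0, 3 and 7 in the WT libraries and to 28, 35 and 28 in the Yme1l-/- libraries. Taken by gene, the loci that share windows with Sp100 held 19 fragments in Yme1l-/- beside its 1476 (1.29%), those of Sp110 held 22 beside its 106 (20.8%) and those of Sp140 held 66 beside its 217 (30.4%). In WT they held 0 fragments beside the 10 of Sp100, 3 beside the 2 of Sp110 and 9 beside the 26 of Sp140. The values of Sp110 and Sp140 are therefore less certain than that of Sp100. RefSeq also lists a start of Sp110 inside Sp140 on the other strand, and whether fragments were counted by strand is not given in the sources used here.

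Since the Speckled protein genes are known from leukocytes, markers of immune cells were examined beside them. The 10 markers summed to 2.08 to 2.24 CPM in WT and 4.40 to 4.97 CPM in Yme1l-/-, most of it Cd68 (1.77 CPM in WT and 3.63 CPM in Yme1l-/-, above Sp110 and Sp140). Ptprc, the general leukocyte marker, was at a mean of 0.0203 CPM in WT and 0.0132 CPM in Yme1l-/-, and Adgre1, Cd3e and Tyrobp had no fragment in any library. The myeloid markers Itgam, Csf1r and Lyz2 were higher in Yme1l-/- without overlap, a pattern found for 35.9% of all loci tested. Their means were 0.368, 0.309 and 0.239 CPM against 0.101, 0.102 and 0.0204 CPM in WT, and they were too low to be tested. Cd79a overlapped between the genotypes. The part of such cells in the Speckled protein values was not tested. Endothelial markers summed to 0.888 to 1.44 CPM in WT and 1.67 to 2.00 CPM in Yme1l-/-, mostly Kdr, which was called higher. Pecam1 was higher without overlap (means of 0.0102 and 0.134 CPM, not tested), Cdh5 and Tek overlapped between the genotypes, and Tie1 and Emcn were at 0 in all libraries. Epithelial markers summed to 33.1 to 35.1 CPM in WT, nearly all Krt18, and to at most 0.686 CPM in Yme1l-/-.

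Tested neighbours of the Speckled protein genes did not share their rise. Of 27 further loci that start within 500 kb of the cluster, only 3 were abundant enough to be tested, 2 of them called lower and none higher. Their log2 fold changes lay between -0.26 and 0.02, and the nearest tested locus to the right, Cab39, was at -0.26 ± 0.04 (SE). The nearest to the left, Rpl19-ps1, a ribosomal protein pseudogene whose deposited interval starts outside this range and ends 234284 bases before Sp110, was called higher at 0.32 ± 0.08 (SE). Among the loci within 500 kb that were too low to be tested, 2 were higher without overlap, named after their values were seen. A630001G21Rik had 1, 2 and 1 fragments in WT and 11, 23 and 12 in Yme1l-/-. Gm7592 had 0, 0 and 0 in WT and 6, 7 and 1 in Yme1l-/-. The other untested loci overlapped between the genotypes. The median of the 794 loci tested on chromosome 1 was -0.15. Around Pml 9 loci were tested, 2 called higher and 5 lower (33.6% and 34.1% over all loci), with a median of -0.36, and the neighbours on either side were Stoml1 (0.06 ± 0.09, SE) and the joined locus of Islr and Islr2 (1.94 ± 0.44, SE).

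Daxx lies at the edge of the major histocompatibility complex, among genes that rose. Of 36 loci tested within 500 kb, 23 were called higher and 4 lower, where 33.6% of all loci were called higher, and their median log2 fold change was 0.36. The locus that joins Tapbp, a chaperone of antigen presentation, with Zbtb22 begins 309 bases after Daxx and rose from 93.1 to 239.6 CPM, a log2 fold change of 1.36 ± 0.05 (SE). On the other side, BC051226 ends 97 bases before Daxx and was at 1.33 ± 0.18 (SE). Both had an edgeR adjusted p of at most 4.6e-05, whereas Daxx between them was not called.

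**Figure D3:**
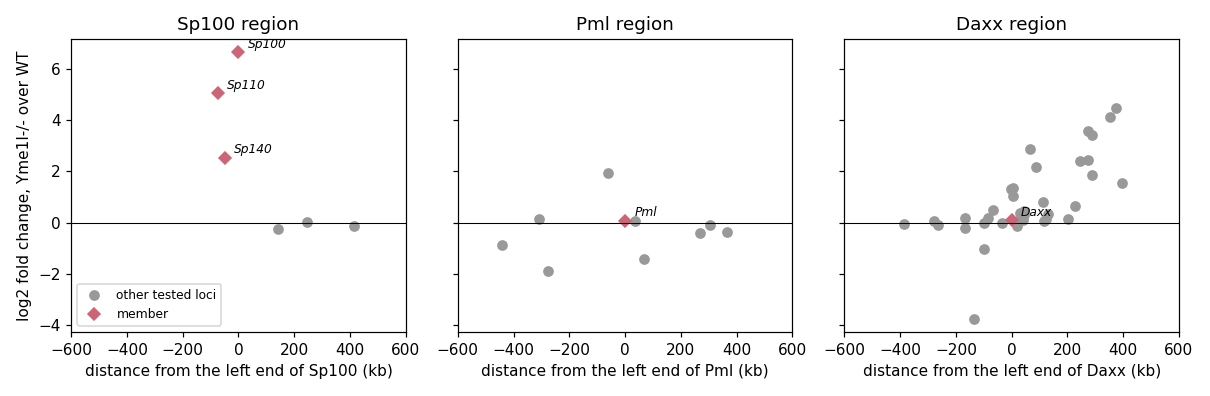
Log2 fold change of Yme1l-/- over WT for the tested loci (grey) around the Speckled protein genes, Pml and Daxx (red diamonds), against the distance in kb between the left end of each locus and that of Sp100, Pml or Daxx. The 3 Speckled protein genes stand above all tested neighbours, Pml lies near 0 among neighbours that reach from -1.90 to 1.94 (Islr and Islr2), and Daxx stays near 0 among loci that reach from -3.75 to 4.46.

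Other genes of the nuclear bodies did not move in the manner of the Speckled protein genes. Among 23 partners of PML, 22 were tested, 5 called higher and 12 lower (33.6% and 34.1% over all loci), with a median log2 fold change of -0.23 beside -0.004 for all loci tested. With chromosome medians removed, 2 were called higher and 13 lower. Of genes that deposit H3.3, Atrx, which works with Daxx, was at -0.37 ± 0.11 (log2 fold change ± SE). The joined locus of the chaperone gene Hira, 2510002D24Rik and Gm28539 was at -0.24 ± 0.05 (SE). Both loci were called lower. Of their relatives in the list, Ubn1 was called lower too (-0.39 ± 0.05), Cabin1 of the HIRA complex was called higher (0.24 ± 0.06), and Ubn2 (0.23 ± 0.13) and Asf1a (-0.02 ± 0.05) were not called (log2 fold change ± SE). The genes that encode H3.3 itself went both ways, with H3f3a lower at -0.42 ± 0.06 and H3f3b higher at 0.18 ± 0.05 (SE). The 3 calls of largest size were Isg20, an exonuclease induced by interferon (0.80 ± 0.09), Trp53, which encodes p53 (0.74 ± 0.04), and Mre11a of the MRN complex for DNA repair (-0.70 ± 0.05, log2 fold change ± SE). Zbtb16, at 0 fragments throughout, could not be tested.

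The SUMO pathway attaches SUMO to PML and its partners and removes it again. All 18 genes of the list were tested, 4 called higher and 11 lower (33.6% and 34.1% over all loci), with a median of -0.16. The SUMO proteases went both ways, with Senp6, which trims SUMO chains, lower by -0.75 ± 0.06 and Senp3 higher by 0.68 ± 0.06 (log2 fold change ± SE). The ligase gene Pias4 was higher, at 0.62 ± 0.06 (SE).

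Among 9 genes with a SAND domain, the 3 Speckled protein genes are themselves members. Of the 5 others that were tested, Gmeb1, a factor of glucocorticoid signalling, fell by 0.72 ± 0.05 (log2 fold change ± SE), and Deaf1, Gmeb2 and Skil were called lower too, while Ski was called higher at 0.13 (over all loci, 34.1% were called lower and 33.6% higher). Aire had at most 1 fragment in each library and was not tested.

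Genes of interferon signalling, which are known to control Sp100 and Pml, were mostly higher. Of 14 loci tested, 10 were called higher and 3 lower (33.6% and 34.1% over all loci), and the median was 0.53. Irf7, a transcription factor of the interferon response, was at 2.57 ± 0.11, Stat2 at 1.76 ± 0.08 and the joined locus of Irf9 and Rnf31 at 0.82 ± 0.05 (log2 fold change ± SE). Stat2 and Irf9 act together below interferon receptors, and Sp100, at 6.66, was further from WT than these 3 loci, while Pml, at 0.06, was closer to WT. Those differences between genes were not tested.

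**Figure D4:**
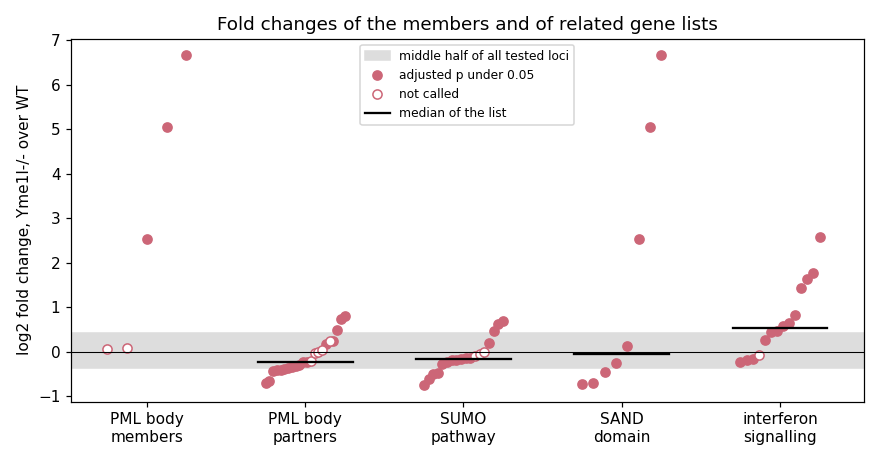
Log2 fold change of Yme1l-/- over WT for each tested gene of 5 lists, filled where the edgeR adjusted p was under 0.05, with the list median as a black line (not drawn for the members, which are too few) and the interquartile range of all tested loci, -0.36 to 0.41, as a grey band. Sp100, Sp110 and Sp140 lie far above the band and appear again in the SAND domain column, while Pml, Daxx and most partners and SUMO genes lie in or near it.

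Loci with the pattern most like each gene were found by the root mean square difference of log2 CPM, centred on the mean of each locus, over the 6 libraries. For Sp100 these were Hoxc4 (0.334), Hoxc6 (0.480) and Limch1 (0.532), which were also near 0 in WT. Sp110 had as its nearest Mest (0.151), the joined locus of Ifi47 and Olfr56 (0.162) and Jph4 (0.218), and Sp140 had Slc16a4 (0.293), Tnnc1 (0.332) and Slc37a1 (0.340). For Pml the nearest were Iqcb1 (0.0153), Vwa8 (0.0214) and Knstrn (0.0238), and for Daxx Slc1a5 (0.0126), Urod (0.0142) and Wdr46 (0.0165), all of them loci that were not called. A prior count of 2 was added before logs were taken, which shrinks the step of sparse genes, so that the loci nearest to Sp110 had fitted log2 fold changes of 3.4 to 3.92 where Sp110 had 5.05.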

How the data were processed

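RNA of the 6 cultures was converted by the authors into stranded poly(A) libraries and sequenced in pairs. Reads were mapped to mm10 (GRCm38) with HISAT2 2.0.4, transcripts were assembled with StringTie 1.3.3 and genotypes compared with Cuffdiff 2.2.1, per the labels and methods. The deposited table of counts holds raw fragments for 51499 loci, and the treatment of multi-mapping reads is not given in the sources used here. The authors' second table holds FPKM values, combined per genotype, with their log2 ratio, p and q, which were not used. Counts were analysed with R 4.3.3 and edgeR 4.0.16 (filterByExpr with a minimum count of 10, 13867 loci kept, TMM scaling, robust glmQLFit, two-sided glmQLFTest, Benjamini-Hochberg adjustment over all loci). The script was tested on simulated data. Joined loci cannot be divided among their genes.

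Loci outside the members were named by rule: the 3 largest calls per list with at least 1 CPM, Atrx, Hira and Irf9, the 3 nearest patterns and the nearest tested neighbours. Markers, the remaining SAND genes, Aire, Zbtb16 and other genes of H3.3 were named beyond the rule, after their values were seen. Some loci that the rule names are not reported here. The members and lists were chosen with earlier results of these data known. Same-numbered cultures were not paired by the labels. Alternatives were RLE or upper-quartile scaling, DESeq2 1.42.0, other filters, the replicate block, each culture left out, thinning to the smallest library, chromosome medians removed and single-gene loci.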

Additional observations from a re-analysis of the deposited data

How the results depend on the processing

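Sp100, Sp110 and Sp140 kept their direction and call under the 14 alternatives that tested them, but most of these keep the filter that they passed through Yme1l-/- alone, so this is little sign of stability. Requiring 10 counts in every sample left 0 calls among the members, since only Pml and Daxx were tested, and 5 in the SAND domain list. Leaving out each culture in turn gave log2 fold changes of 6.08 to 7.06 for Sp100, 4.53 to 7.97 for Sp110, 2.19 to 3.06 for Sp140, 0.02 to 0.12 for Pml and 0.07 to 0.11 for Daxx, with 3 members called in each fit. Daxx was called under upper-quartile scaling (0.15), which moved the median of all loci to 0.055 and shifted the calls to 5168 higher and 4204 lower, from 4653 and 4734. With chromosome medians removed Pml was called (0.42) and Daxx was at -0.0763 (edgeR adjusted p 0.18). Of 72 alternative fold changes of members, 69 kept their direction and side of the threshold, and 88 of 90 total counts of calls stayed within 1.5 times the reported count. Within the partner list, higher calls went from 5 to 2 with chromosome medians removed.

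Deviations of same-numbered cultures correlated at 0.14, -0.094 and 0.048. With 3 cultures per genotype such values cannot tell whether same-numbered cultures were prepared together. With the replicate number as a block, Sp100 was at 6.66, Sp110 at 5.03, Sp140 at 2.53, Pml at 0.06 and Daxx at 0.09, 9794 loci were called, and no call among the members changed. Depth limits Sp110, with 2 fragments in WT.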

Other observations

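Beside the Speckled protein cluster, the locus A630001G21Rik, named after its values were seen, was counted 1, 2 and 1 times in WT and 11, 23 and 12 times in Yme1l-/-. It did not pass the filter on low counts and was not tested. Of the genes that share transcript sequence with the cluster, A530032D15Rik had no fragment in WT and 5, 8 and 5 in Yme1l-/-, C130026I21Rik had 0, 0 and 2 in WT and 5, 5 and 6 in Yme1l-/-, and Gm7592 had none in WT and 6, 7 and 1 in Yme1l-/-. Gm7609, whose promoter window held the run shared by Sp100 and Sp110, had no fragment in WT and 2, 2 and 1 in Yme1l-/-. These genes were likewise named after their values were seen, and how many of their fragments came from other genes of the family was not tested.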
